A study of Mus musculus with 14 samples.

Results

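The 6 libraries described here come from macrophages of young tumours, 8 days after 4T1 cells were injected into the fat pad of Balb/c mice, and they are part of a series of 14 libraries. The label of the library column gave the group: 3 libraries came from tumours of cells pre-treated with DMSO, the vehicle, and 3 from tumours of cells pre-treated with GSK269962A at 5 µM for 5 days. These are called the DMSO and GSK libraries below, and the drug was given to the tumour cells before injection, as far as the labels say. The series names Balb/c as the host and no age, sex or genotype. The other 8 libraries, 4 for each pre-treatment, were taken on day 14 and enter the gene filter, the shared estimate of spread and the comparison of the days.

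GSK269962A is a small-molecule inhibitor of the kinases ROCK1 and ROCK2, which phosphorylate myosin and its phosphatase and so drive contraction of the actin cytoskeleton. The line 4T1 is a mouse mammary carcinoma line that grows in immunocompetent Balb/c mice and attracts many myeloid cells. Macrophages of a tumour arise largely from blood monocytes. They take up dying cells, present peptides to CD4 T cells on MHC class II molecules, and release cytokines such as interleukin-1 and chemokines that draw in other leukocytes. The cells were taken from dissociated tumours with magnetic beads against F4/80, the product of Adgre1, over 2 rounds of column separation.

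The values are log2-scale normalised expression values as deposited, without counts, so the depth behind them is unknown. A gene was kept when its unlogged value was at least 10 (3.32 on the log2 scale) in at least 3 of the 14 libraries, which left 11886 of 24556 genes. A difference below is always GSK minus DMSO on the log2 scale on day 8 unless another is named, so 1 stands for a 2.00-fold change. SE is the standard error from the limma fit, and a gene passed when its p-value, adjusted over all kept genes by the Benjamini-Hochberg method, was under 0.05. Nothing in the labels says that each library came from a separate mouse, so p-values measure the spread between these libraries, which may be technical. Among genes with a mean below 0 the median range over the 14 libraries was 0.074, against 0.976 among genes with a mean of 3.32 or more, so differences of low genes may be compressed.

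All 17 genes of the pan-macrophage list were kept, and the labelled cell type could be checked on them. Adgre1 lay between 8.93 and 9.93 in the 6 libraries, Csf1r, the receptor for macrophage colony-stimulating factor, between 11.88 and 12.12, and Cd68 between 9.96 and 11.15. Markers of other cells were present as well. The summed unlogged level of the 14 kept genes of the 4T1 epithelium list, which holds keratins and junction proteins, ran from 2557 to 3506 in DMSO libraries and from 1992 to 4961 in GSK libraries, against 66580 to 69018 and 66282 to 76396 for the pan-macrophage list. For neutrophil markers the sums were 23411 to 35253 and 23639 to 26908. Of the 20 genes of the T and NK cell list 5 were kept, and Cd3g, Trbc1 and Nkg7 were below 0.02 in every day 8 library. In such bulk fractions, fewer cells of a type and less RNA per cell cannot be told apart, and this holds for every result below.

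Between pairs of the 6 libraries the Pearson correlation over kept genes ran from 0.958 to 0.993, with overlapping ranges for pairs of the same group (0.967 to 0.993) and pairs across groups (0.958 to 0.982). DMSO library 1 stood apart on the first principal component of the 6, which held 40.8% of the variance, with a score of -46.69 against -7.63 to 25.01 for the other 5. Over a pair of overlapping ribosomal RNA genes, the libraries also split in a way that follows the groups only in part. AY036118 was the higher of the pair in DMSO library 2 and in GSK libraries 2 and 3, and Gm42418 was the higher in DMSO libraries 1 and 3 and in GSK library 1. On day 14 AY036118 was the higher in all GSK libraries and in DMSO libraries 1 and 3. The split and the pre-treatment are therefore partly mixed. Differences within each of these kinds of library are given beside the main results, as the AY036118-high and the Gm42418-high value. Each rests on 1 library of one group and 2 of the other.

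Few genes passed the threshold on day 8. Of 11886 genes, 23 passed (0.194%), with 7 higher in GSK libraries (0.0589%) and 16 lower (0.135%), and the lowest adjusted p was 0.0311 (limma). Slc17a9, which loads nucleotides into vesicles, fell, as did the signalling anchor gene Akap5, the nuclear import receptor gene Tnpo3 and the motor protein gene Kif3a. Hsph1, a heat-shock protein of the Hsp110 family, and Krt14, a keratin of basal epithelium, rose. The median difference over all kept genes was 0.02, and 53.0% of genes had a positive one.

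Genes with large differences mostly did not pass. Of 145 genes with a difference of at least 1 in size, 64 were positive and 81 negative. None of the 7206 genes with a difference under 0.25 or the 3361 genes from 0.25 to 0.5 passed, while 5 of 1174 from 0.5 to 1, 17 of 121 from 1 to 2 and 1 of 24 over 2 did. An unadjusted p under 0.05 was found for 1939 genes, 945 higher (7.95%) and 994 lower (8.36%). The median SE was 0.19. The 23 comprised 13 protein-coding genes, 5 pseudogenes and 5 non-coding genes. Of these, 8 are numbered gene models and are counted only. In 13 of the 23, at least 10% of the 31-base words of the transcripts also occur in another gene, where reads may be assigned to either. This was so for 3080 of the 11886 kept genes.

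**Figure D1:**
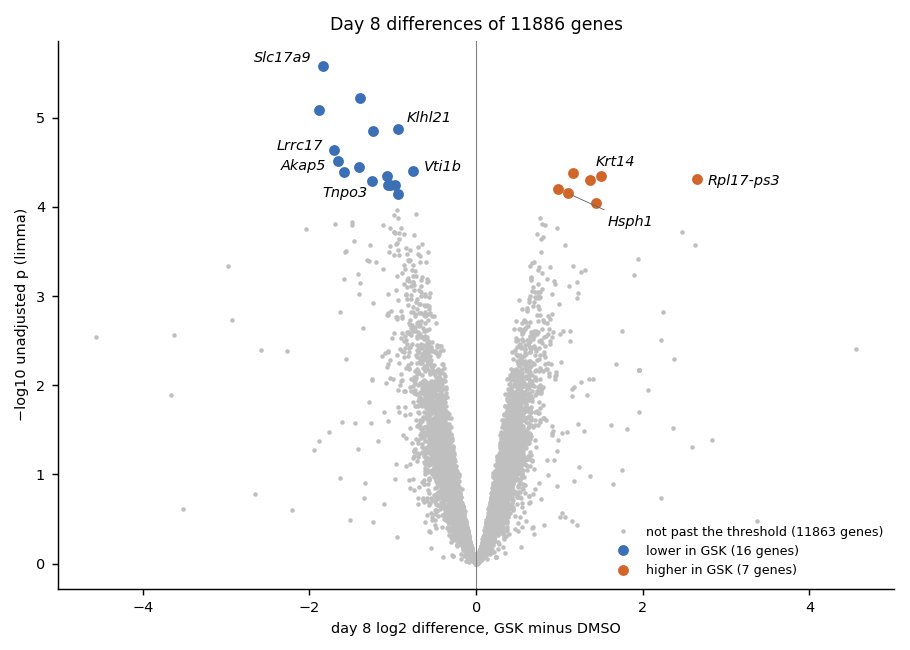
Difference on day 8 (horizontal axis, GSK minus DMSO, log2) against the unadjusted p of the limma fit (vertical axis, −log10) for each of 11886 kept genes. Blue points mark the 16 genes that passed with lower values in GSK libraries and orange points the 7 that passed with higher values, while many grey points with differences over 1 in size did not pass.

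This count rests on single libraries. Without DMSO library 1, GSK library 2 or GSK library 3, limma called 0 genes, with 1327, 1488 and 1381 genes at an unadjusted p under 0.05. It called 208 without DMSO library 2, 52 without DMSO library 3 and 201 without GSK library 1, and of the 23 genes 23, 21 and 23 were among these. With each day 14 library left out in turn it called from 1 to 71. All 23 genes kept their direction in each of these fits and in every other setting in which they were tested. In AY036118-high libraries 76 genes passed, 54 higher and 22 lower, and 12 of the 23 were among them. In Gm42418-high libraries 3 passed, all lower, and 0 of the 23 were among them. When the epithelial mean of each library (the 4T1 epithelium list) was added to the model 0 passed, with 1869 at an unadjusted p under 0.05. In that fit the 23 kept their direction.

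Slc17a9 (ENSMUSG00000023393; GRCm38 chromosome 2, 180725263 to 180742280, plus strand) encodes the vesicular nucleotide transporter, through which cells store ATP for release. Its values were 9.79, 8.98 and 8.74 in the DMSO libraries and 7.34, 7.50 and 7.14 in the GSK libraries. The lowest DMSO library lay 1.24 above the highest GSK library, and DMSO library 1 was the highest of all. The difference was -1.84 (SE 0.26), 3.59-fold lower, with an adjusted p of 0.0311 (limma). It was -1.66 in AY036118-high libraries and -1.92 in Gm42418-high libraries, and it ran from -2.06 to -1.53 when each day 8 library was left out.

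ATP that leaves a cell acts on P2 receptors and is broken down to adenosine by Entpd1 and Nt5e, and adenosine dampens macrophage activation through its own receptors. Of the 16 genes listed for nucleotide release and purine receptors, all kept, Slc17a9 was the only one to pass. The median difference of the list was 0.01, against 0.02 for all kept genes, and 8 of 16 were positive. Nt5e had a difference of 0.45 (SE 0.20, adjusted p = 0.284, limma) and the channel gene Panx1, another route of ATP release, one of -0.42 (adjusted p = 0.308). The adenosine receptor genes Adora2a and Adora2b were at -0.36 and -0.29, and P2ry13 at 0.34. None of these 5 passed, although Nt5e, Panx1, Adora2a and Adora2b had no overlap between the groups, which was the case for 8.01% of kept genes in the higher and 8.14% in the lower direction.

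Akap5 (chromosome 12, plus strand) encodes an anchoring protein that holds protein kinase A, protein kinase C and calcineurin at the membrane. Its values were 15.02, 14.04 and 13.43 in DMSO and 12.65, 12.77 and 12.09 in GSK libraries, a difference of -1.66 (SE 0.29, adjusted p = 0.0361, limma). Lrrc17 (chromosome 5, plus strand), a secreted leucine-rich repeat protein, stood at 14.79, 13.91 and 13.16 against 12.37, 12.51 and 11.87, a difference of -1.71 (SE 0.29, adjusted p = 0.0361). Both genes followed the same order of libraries, from DMSO library 1 at the top to GSK library 3 at the bottom, without overlap between the groups. Their transcripts share 43 words of 31 bases, out of 6557 for Akap5 and 3576 for Lrrc17, so part of their reads may be common. Over the 14 libraries Akap5 and Lrrc17 correlated at 0.998 (Pearson). Kif3a and Selenot, which share 0 words, correlated at 0.980. Pairs among Akap5, Lrrc17, Slc17a9, Tnpo3, Selenot and Kif3a ran from 0.894 to 0.998. The cause of these correlations was not tested. Without DMSO library 1 the differences were -1.24 for Akap5 and -1.29 for Lrrc17.

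Tnpo3 (chromosome 6, minus strand), transportin 3, carries serine- and arginine-rich splicing factors into the nucleus. It stood at 11.50, 10.74 and 10.67 in DMSO libraries and at 9.62 and 9.53 in GSK libraries 2 and 3, while GSK library 1 was the highest of its group, 0.67 below the lowest DMSO library. Tnpo3 fell by 1.25 (SE 0.23, adjusted p = 0.0361, limma). Of the 26 genes listed for nuclear import and export it was the only one to pass, the list median was -0.09, and 10 were positive. Other carriers had values on both sides. The importins Kpna4 and Kpnb1 were at 0.55 and -0.53, and the exportins Xpo4 and Xpo6 at -0.87 and 0.52, with adjusted p from 0.116 to 0.18.

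Kif3a (chromosome 11, plus strand) encodes a motor subunit of kinesin-2, which carries cargo along microtubules and into cilia. Its values were 10.58, 9.86 and 9.99 in DMSO and 9.27, 9.25 and 9.10 in GSK libraries, a fall of 0.93 (SE 0.18, adjusted p = 0.0386, limma), with no overlap. The other 23 kept genes for kinesins and dynein did not pass, and the list median was 0.03. Among them Klc4 was at 0.51, Kif1b at -0.43 and the dynactin gene Dctn1 at 0.48.

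Cenpc1, a protein of the inner kinetochore on which chromosomes attach to the spindle, stood at 7.68, 7.22 and 6.83 in DMSO and at 6.08, 5.90 and 6.04 in GSK libraries. The groups were apart by 0.75, and the difference was -1.24 (SE 0.20, adjusted p = 0.0334, limma). It shares 13.1% of its words with other genes. Of the 20 kept kinetochore and centromere genes, 6 were positive and 4 had an unadjusted p under 0.05 in the lower direction, as did 8.36% of all kept genes. These 4 were Cenpc1, Cenpt at -0.78, Nuf2 at -0.41 and Spc24 at -0.44. The list median was -0.10. Over the 33 genes for the cell cycle and DNA replication it was 0.08, none passed, and the smallest p belonged to Birc5, an inhibitor of apoptosis active in mitosis, at -0.79 (adjusted p = 0.1).

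Vti1b, a SNARE protein for vesicle fusion in the endosomal system, had the tightest GSK values of the named genes that passed, 10.87, 10.88 and 10.88, against 11.77, 11.70 and 11.44 in DMSO libraries. The difference was -0.76 (SE 0.14, adjusted p = 0.0361, limma). Selenot, a selenoprotein of the endoplasmic reticulum, was at 11.38, 10.63 and 11.04 against 9.98, 10.06 and 9.84, a difference of -1.06 (SE 0.20, adjusted p = 0.0361). Klhl21, an adaptor of a ubiquitin ligase, was at 8.76, 8.65 and 8.70 against 7.61, 7.94 and 7.74, a difference of -0.94 (SE 0.15, adjusted p = 0.0334). In all 3 genes the groups were apart in every library. Ccdc22, a part of the complex that recycles endosomal cargo, fell by 1.04 (SE 0.19, adjusted p = 0.0361), but 89.8% of its words occur in other genes. Vti1b shares 15.3%, Klhl21 20.7% and Selenot 3.06%.

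**Figure D2:**
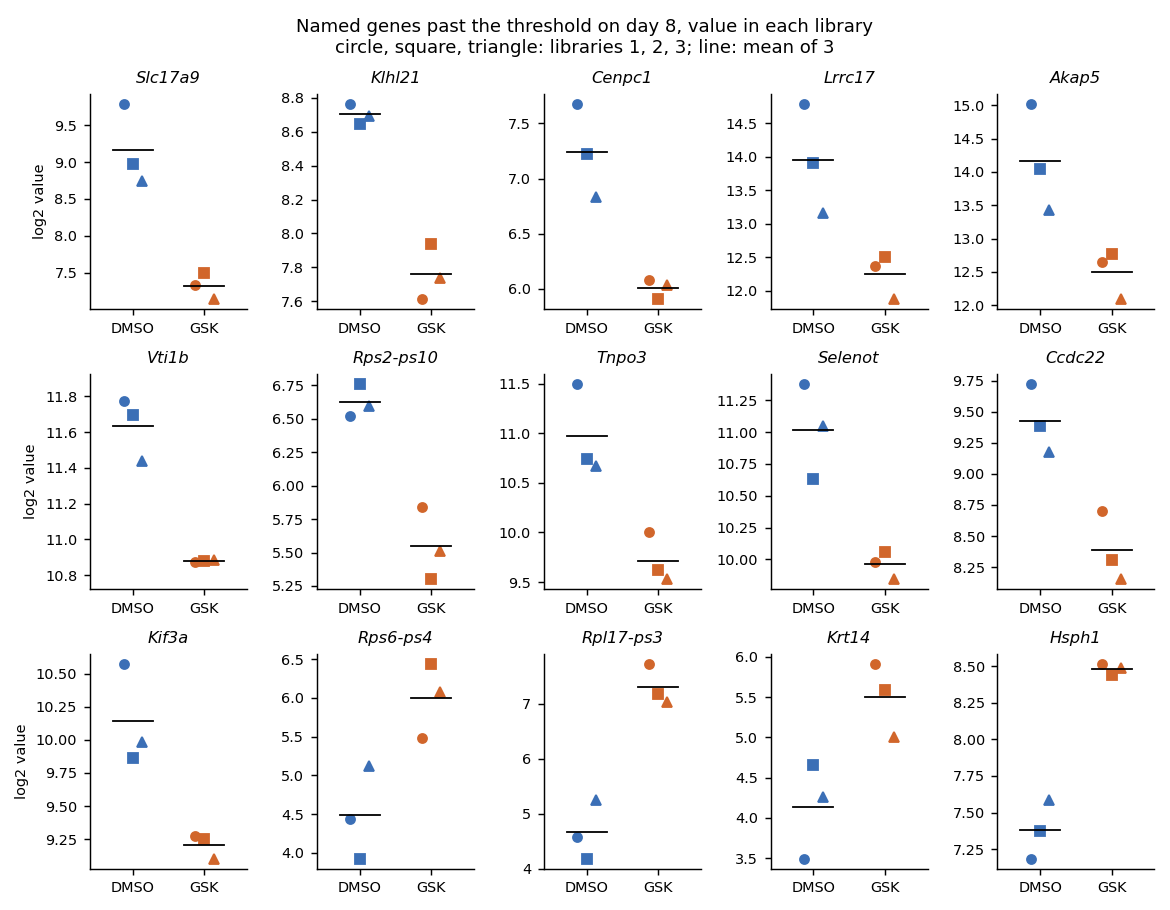
Log2 value (vertical axes, scaled per gene) of the 15 named genes that passed on day 8, in each of 3 DMSO libraries (blue) and 3 GSK libraries (orange), with the mean of 3 as a line. The groups do not overlap in any panel, and DMSO library 1 (circles) is the highest library in most genes with lower GSK values, such as Slc17a9, Akap5 and Tnpo3.

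Among the 16 genes that fell, DMSO library 1 was the highest of the 6 libraries in 14, and GSK library 3 was the lowest in 11. Those are also the outermost libraries on the first principal component of the 6, at -46.69 and 25.01. The part of this axis in the differences was not tested. Without DMSO library 1, Slc17a9 still differed by -1.53, Kif3a by -0.72 and Tnpo3 by -0.99, with adjusted p-values of 0.116 to 0.175 at the highest over the 6 such fits.

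Hsph1 (chromosome 5, minus strand) belongs to the Hsp110 family, which releases nucleotide from Hsp70 and helps it dissolve protein aggregates. It stood at 7.18, 7.37 and 7.58 in DMSO and at 8.52, 8.44 and 8.49 in GSK libraries. The 3 GSK libraries lay within 0.07 of each other and all above the DMSO libraries. The rise was 1.10 (SE 0.21, 2.15-fold, adjusted p = 0.0386, limma), it was 1.10 in AY036118-high and 1.13 in Gm42418-high libraries, and it ran from 1.01 to 1.21 when each day 8 library was left out. None of its words occur in another gene.

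Of the 30 kept genes for heat-shock proteins and chaperones, Hsph1 alone passed, 19 were positive and the median was 0.11. The members with small p-values pointed both ways. Hspa4, the nearest relative of Hsph1, was at 0.54 (8.66, 9.54 and 9.12 against 9.52, 9.66 and 9.76), with GSK library 1 inside the DMSO range, and the Hsp70 co-chaperone Bag3 was at 0.40 without overlap. Hsp90aa1 was at -0.60, the chaperonin subunit Cct5 at -0.66 and the mitochondrial Hsp70 gene Hspa9 at -0.55, each without overlap and with adjusted p from 0.114 to 0.192 (limma). Hsph1 is also in the list for immediate-early genes and tissue dissociation, of which 20 were kept, 9 were positive and the median was -0.08. Klf2, a transcription factor that restrains inflammatory genes, had the next smallest p of that list, at 13.54, 12.35 and 12.88 against 12.03, 11.57 and 11.57 (difference -1.20, adjusted p = 0.0613). Junb and Fos were at -0.54 and -0.32. The list median was 0.30 in AY036118-high and -0.35 in Gm42418-high libraries.

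Krt14 (chromosome 11, minus strand) was at 3.49, 4.66 and 4.26 in DMSO and at 5.91, 5.59 and 5.01 in GSK libraries, and rose by 1.37 (SE 0.25, adjusted p = 0.0361, limma). The groups did not overlap, though the level was low and 28.2% of its words occur in other genes. The rise was 0.64 in AY036118-high and 2.04 in Gm42418-high libraries. With the epithelium mean as a covariate it was 1.08 with an adjusted p of 0.0752 (limma), but that mean includes Krt14 itself. Over the fits that left out 1 day 8 library, without the covariate, the adjusted p ran from 0.0269 to 0.146.

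Of 20 genes of the 4T1 epithelium list, 14 were kept, 13 of these were positive, the median difference was 0.35, and Krt14 was the one that passed. Its list mean was 5.54, 5.76 and 6.35 in DMSO and 6.96, 6.57 and 5.56 in GSK libraries, so GSK libraries 1 and 2 were the highest and GSK library 3 lay next to the lowest. Cldn4, a tight junction protein, was at 1.22 (adjusted p = 0.0796) without overlap. Wfdc2 was at 1.03 and Krt19 at 0.97, both with overlap. Krt8, Krt18 and Epcam, which define the epithelial lineage, were at 0.44, 0.37 and 0.25 (adjusted p from 0.568 to 0.726), and Cdh1, E-cadherin, was at -0.31 with every GSK library the lower. The median ran from 0.12 to 1.00 with each day 8 library left out. The part of tumour cells in other differences of the fractions was not tested beyond the covariate fit.

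The ribosomal protein pseudogenes Rpl17-ps3 and Rps6-ps4 rose by 2.65 (SE 0.48) and 1.50 (SE 0.27), and Rps2-ps10 fell by 1.07 (SE 0.19), each with an adjusted p of 0.0361 (limma). Rpl17-ps3 was at 4.57, 4.17 and 5.25 in DMSO and at 7.73, 7.17 and 7.04 in GSK libraries. They share 90.3%, 100% and 97.2% of their words with other genes, so their reads may come from a parent gene or another copy. Their values are therefore uncertain as measures of these loci. Of 315 kept processed pseudogenes, 3 passed higher and 2 lower, 200 were positive and the median was 0.11. Among protein-coding genes, Rpl35 had a difference of 2.48 (7.49, 8.00 and 8.40 against 10.92, 10.03 and 10.37, adjusted p = 0.053), and it shares 88.8% of its words. The 38 kept cytosolic ribosomal protein genes had a median of -0.10, 15 were positive and none passed. Of the 38, 9 had an unadjusted p under 0.05 in the lower direction, against 8.36% of all kept genes. In the higher direction it was 1, against 7.95%. The list median was -0.36 in AY036118-high and 0.13 in Gm42418-high libraries, and 32 of the 38 share at least 10% of their words.

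MHC class II molecules are pairs of an alpha and a beta chain. They are loaded in endosomes with the help of the invariant chain Cd74, the protease Ctss that degrades it, and the exchange factor H2-DM, and their genes are switched on by the coactivator Ciita. The coactivator is held at class II promoters by factors on short elements, among them the Y box bound by NF-Y. Promoters of class II genes are therefore shown here and of interferon-induced genes below. They are RefSeq promoters of GRCm38.p6, 250 bases up to the annotated start, 5′ to 3′ on the strand of the gene. The capitals mark the Y box letters CTGATTGG, searched on both strands, which contain the reverse complement of the CCAAT box. In these promoters the match begins 62 and 51 bases before the start.

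H2-Eb1, chr17:34305617-34305866, plus strand: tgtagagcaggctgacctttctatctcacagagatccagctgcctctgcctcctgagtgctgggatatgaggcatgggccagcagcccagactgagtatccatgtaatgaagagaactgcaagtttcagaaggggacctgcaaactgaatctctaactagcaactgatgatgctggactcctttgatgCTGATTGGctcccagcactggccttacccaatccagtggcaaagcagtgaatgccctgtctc

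H2-Aa, chr17:34287824-34288073, minus strand: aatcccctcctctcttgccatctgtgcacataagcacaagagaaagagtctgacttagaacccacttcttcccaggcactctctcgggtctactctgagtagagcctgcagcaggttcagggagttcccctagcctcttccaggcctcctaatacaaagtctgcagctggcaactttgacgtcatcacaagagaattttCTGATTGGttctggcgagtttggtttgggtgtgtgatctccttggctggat

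The same letters occur in 3.83% of 32851 promoters of this length, and 7 of the 10 kept class II genes had a promoter in the table, 2 of which held them. These 2 had a median difference of 0.77, and the 5 without a match 0.28. None of the 10 kept class II genes passed (0.194% of all kept genes did), but 9 were positive and the median difference of 0.51 was the highest of the lists with at least 3 kept genes, against 0.02 for all kept genes. The list mean was 10.52, 10.70 and 10.48 in DMSO and 10.96, 10.93 and 11.03 in GSK libraries, without overlap. It averaged 10.57 ± 0.11 and 10.97 ± 0.05 (SD, n = 3 each). Means without overlap were not particular to class II. The interferon, inflammasome, NF-kB, integrin and dendritic cell list means were also higher in every GSK library. Those of the proteasome, kinetochore, nuclear import and export, and purine receptor lists were lower in every GSK library.

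The members with the smallest p-values were chains and the protease. H2-Ab1, the beta chain of I-A, was at 13.58, 13.67 and 13.81 in DMSO and 14.10, 14.36 and 14.42 in GSK libraries, a difference of 0.61 (SE 0.16, adjusted p = 0.0934, limma). H2-Eb1, the beta chain of I-E, was at 11.31, 11.64 and 11.29 against 12.11, 12.13 and 12.58 (difference 0.86, SE 0.27, adjusted p = 0.141). H2-Aa, the alpha chain of I-A, was at 12.31, 12.15 and 12.36 against 12.36, 13.19 and 13.29 (difference 0.68, SE 0.21, adjusted p = 0.141). For H2-Aa, GSK library 1 lay at the level of DMSO library 3, while GSK libraries 2 and 3 were above every DMSO library. The H2-Aa difference was 1.10 in AY036118-high and 0.03 in Gm42418-high libraries.

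Ctss was at 0.58 (adjusted p = 0.125, limma) and H2-DMa at 0.67 (adjusted p = 0.165), both without overlap. Cd74 was at 0.09, Ciita at 0.43, H2-DMb2 at 0.28, H2-Ob at 0.12 and H2-DMb1 at -0.26, all with overlapping groups. Signs turned between the kinds of library for Ciita, with -0.38 in AY036118-high and 1.13 in Gm42418-high libraries, and for Cd74, with -0.30 and 0.37. Ciita was at 0.19 without DMSO library 3 and at 0.74 without DMSO library 2. Of the 10, 4 had all GSK libraries above all DMSO libraries, which was so for 8.01% of all kept genes. The list median was 0.20 in AY036118-high and 0.43 in Gm42418-high libraries, 0.54 with the epithelium mean as a covariate, and from 0.41 to 0.61 with each day 8 library left out. Markers of dendritic cells, which also carry class II, had a median of 0.22 over 11 kept genes, 8 of them positive and 5 of these with an unadjusted p under 0.05, against 7.95% of all kept genes in the higher direction. Their defining gene Zbtb46 was at 0.08, Xcr1 at -0.25, Itgax at 0.54 and Ccr7 at 0.60, and none passed. Their part in the class II values was not tested. The 16 kept MHC class I genes had a median of -0.06, and 6 were positive. That median was 0.17 in AY036118-high and -0.41 in Gm42418-high libraries.

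Interferons induce a broad set of antiviral and chemokine genes through STAT and IRF factors, whose binding sites include repeats of GAAA. Below, the capitals mark GAAA, any 2 bases and GAAA again, or the reverse complement of that run, searched on both strands. The match begins 213 and 53 bases before the start, and in Gbp7 it lies on the other strand.

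Cxcl10, chr5:92348890-92349139, minus strand: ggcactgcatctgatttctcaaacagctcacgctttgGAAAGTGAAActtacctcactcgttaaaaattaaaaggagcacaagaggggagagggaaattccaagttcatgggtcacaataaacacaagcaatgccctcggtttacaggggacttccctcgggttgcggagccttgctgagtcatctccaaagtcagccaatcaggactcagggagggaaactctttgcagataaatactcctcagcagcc

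Gbp7, chr3:142530086-142530335, plus strand: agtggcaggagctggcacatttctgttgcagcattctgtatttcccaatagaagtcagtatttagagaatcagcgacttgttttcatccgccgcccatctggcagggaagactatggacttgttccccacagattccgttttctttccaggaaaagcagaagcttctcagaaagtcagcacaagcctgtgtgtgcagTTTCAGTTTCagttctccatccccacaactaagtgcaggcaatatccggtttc

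Such a run occurs in 2.98% of the 32851 promoters and in 18 of the 34 interferon-list promoters in the table. The 18 genes had a median difference of 0.27, and the 16 without a match 0.18. Cxcl10 and Gbp7 are shown because they had the smallest day 8 p-values among the 18. Over the whole list of 47 kept genes, 38 were positive, the median was 0.21, and none passed. Oasl1, an oligoadenylate synthetase-like protein, was at 7.91, 8.91 and 8.55 in DMSO and at 9.26, 9.31 and 9.59 in GSK libraries (difference 0.92, SE 0.26, adjusted p = 0.111, limma). Ifih1, a sensor of double-stranded RNA, was at 0.58, the dynamin-like Mx2 at 0.56 and the guanylate-binding Gbp7 at 0.51, each without overlap. Cxcl10, a chemokine for T cells, was at 8.77, 8.92 and 9.32 against 9.02, 9.98 and 9.96 (difference 0.65), with overlap.

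The transcription factor gene Irf9, named here after its value was seen, was at -0.35. Groups were apart in 10 of the 47 interferon-list genes (21.3%), all with the GSK libraries higher, against 8.01% of all kept genes in the higher and 8.14% in the lower direction. The list median was 0.09 in AY036118-high and 0.21 in Gm42418-high libraries, and it ran from 0.09 without DMSO library 1 to 0.24 without DMSO library 3. Cxcl10 was at 1.05 in AY036118-high and -0.03 in Gm42418-high libraries.

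The inflammasome is a complex in which sensors such as Nlrp3 and Nlrc4 activate Casp1 through the adaptor Pycard. Casp1 then matures interleukin-1β and opens gasdermin D pores. Of the 14 kept genes for the inflammasome and interleukin-1, 12 were positive, the median was 0.36 and none passed. Il1b was at 12.71, 13.10 and 12.98 in DMSO and at 13.12, 13.56 and 13.72 in GSK libraries (difference 0.54, SE 0.19, adjusted p = 0.172, limma). Nlrc4 was at 4.50, 5.01 and 4.92 against 5.44, 5.28 and 5.59 (difference 0.62, adjusted p = 0.172). Gsdmd was at 6.28, 7.12 and 7.19 against 7.38, 7.53 and 8.01 (difference 0.77, adjusted p = 0.181). In each of the 3 the groups were apart, for Il1b by only 0.02. Over the list, groups were apart in 5 of 14 genes (35.7%), all with the GSK libraries higher, against 8.01% of all kept genes.

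Il18bp, which binds and blocks interleukin-18, was at 0.47 and Nlrp3 at 0.39, both without overlap, and the receptor subunit Il1rap was at 0.44. Casp4 was at 0.46, Pycard at 0.33, the receptor antagonist Il1rn at 0.20, Casp1 at 0.11, Il18 at 0.07, Il1r2 at 0.02, Il1a at -0.04 and Aim2 at -0.13. The list median was 0.32 in AY036118-high and 0.29 in Gm42418-high libraries, and from 0.26 to 0.44 with each day 8 library left out. The neutrophil list, whose cells also hold interleukin-1 transcripts, had a median of 0.05 over 10 kept genes, with S100a8 at 0.06 and S100a9 at 0.27.

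NF-kB drives many inflammatory genes along with its own inhibitors. Of its 27 kept targets and regulators, 21 were positive, the median was 0.19 and none passed. Nfkbiz, an atypical inhibitor of NF-kB that is needed for some secondary targets, was at 8.16, 8.78 and 8.76 in DMSO and at 9.05, 9.28 and 9.31 in GSK libraries (difference 0.65, SE 0.19, adjusted p = 0.118, limma). The neutrophil chemokine Cxcl2 was at 10.65, 10.35 and 10.66 against 10.88, 11.09 and 11.49 (difference 0.60, adjusted p = 0.222), and Cxcl1 was at 0.78 with overlap. Nfkb2 was at 0.54 and the adhesion molecule gene Icam1 at 0.38. Ccl4, a chemokine for monocytes and T cells, was at 12.27, 11.40 and 11.65 against 11.31, 10.99 and 11.25, the reverse direction (difference -0.59, adjusted p = 0.206). The list median was 0.38 in AY036118-high and 0.03 in Gm42418-high libraries.

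Chemokine receptors had values on both sides, and none of the 9 kept genes passed. Cxcr4, the receptor for Cxcl12, was at 10.25, 9.96 and 10.13 in DMSO and at 9.47, 9.58 and 9.55 in GSK libraries (difference -0.58, SE 0.14, adjusted p = 0.0696, limma). The 3 GSK libraries lay below every DMSO library. The scavenging receptor Ackr3 was at -0.52 without overlap. Ccr7, which guides cells to lymph nodes, was at 0.60 and the eosinophil receptor Ccr3 at 0.53, while Ccr1 was at 0.29, Cx3cr1 at 0.25, Ccr2, the monocyte receptor, at 0.05 and Ccrl2 at 0.03.

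**Figure D3:**
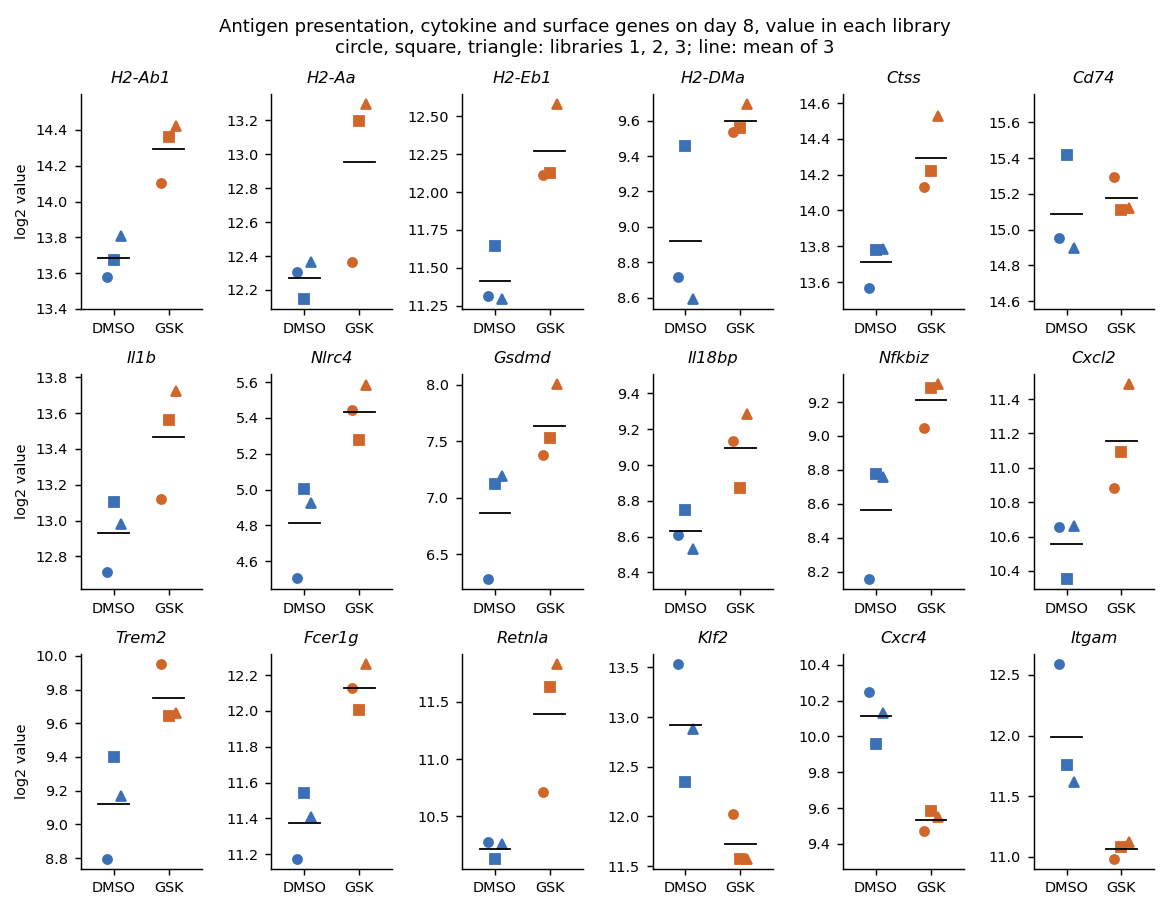
Log2 value (vertical axes, scaled per gene) of 18 genes for antigen presentation, inflammasome and NF-kB signalling, surface receptors and macrophage state in each DMSO (blue) and GSK (orange) library, with the mean of 3 as a line. None passed, and in most panels, such as H2-Ab1, Nfkbiz and Cxcr4, the groups are apart, while in H2-Aa and Cd74 they overlap.

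Genes for classical and alternative activation of macrophages had medians of -0.02 over 18 kept genes and 0.18 over 19, and none passed. The sign of both medians turned between the kinds of library. The classical median was 0.42 in AY036118-high and -0.37 in Gm42418-high libraries, and the alternative median 0.34 and -0.08. Of the classical genes, Irf5 was at -0.62 and the formyl peptide receptor gene Fpr2 at -0.54 (adjusted p = 0.163 and 0.265, limma), whereas Il6 was at 0.54 and Tnf at 0.42. Nos2, which makes nitric oxide, was at -0.02, and its values ran from 3.60 to 4.13 in all 6 libraries. Of the alternative genes, Retnla, a secreted product of cells exposed to interleukin-4, was at 10.27, 10.13 and 10.26 in DMSO and at 10.71, 11.63 and 11.83 in GSK libraries (difference 1.17, SE 0.40, adjusted p = 0.171). The DMSO libraries were within 0.15 of each other, and GSK libraries 2 and 3 were higher than GSK library 1, which itself lay 0.44 above the highest DMSO library.

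Pdcd1lg2, the checkpoint ligand PD-L2, was at 9.79, 9.07 and 9.72 against 10.02, 10.13 and 10.25 (difference 0.61, SE 0.18, adjusted p = 0.118, limma), with the groups apart. Il10 was at 6.47, 6.59 and 7.07 against 6.69, 7.90 and 8.41 (difference 0.96, adjusted p = 0.156), with GSK library 1 inside the DMSO range. Il10 was at 1.57 in AY036118-high and -0.08 in Gm42418-high libraries. Arg1, which consumes arginine, was at 0.18 (adjusted p = 0.715), and Cd274, the ligand PD-L1, at 0.01. Mrc1, the mannose receptor, was at -0.50 with an SE of 0.54, and its values spanned 1.54 in DMSO and 1.57 in GSK libraries. The Mrc1 difference was 1.02 in AY036118-high and -2.04 in Gm42418-high libraries.

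Other genes tracked in tumour macrophages also did not pass. Spp1, osteopontin, was at -0.23, Ccl2 at -0.04, Vegfa at 0.15, Tgfb1 at -0.27 and Adgre1 at 0.27, all with overlap. Several of these signs turned when libraries were left out: Ccl2 ran from -0.38 to 0.44, Spp1 from -0.42 to 0.02, Tgfb1 from -0.47 to 0.05, Nos2 from -0.17 to 0.10 and Cd274 from -0.11 to 0.18.

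The lipid-associated list had a median of 0.11 over 20 kept genes. Its surface receptor Trem2, which binds lipids and apoptotic cells, was at 8.79, 9.40 and 9.17 in DMSO and at 9.95, 9.64 and 9.66 in GSK libraries (difference 0.63, SE 0.16, adjusted p = 0.0833, limma). Trem2 signals with adaptors of the ITAM kind, and of 13 such adaptors and Fc receptors 10 were positive with a median of 0.19. Fcer1g, a signalling chain for Fc receptors, was at 11.18, 11.54 and 11.41 against 12.13 and 12.26 in GSK libraries 1 and 3, with GSK library 2 lower than these and 0.46 above the highest DMSO library (difference 0.76, SE 0.22, adjusted p = 0.118), and the kinase gene Syk was at 0.41. In Trem2, Fcer1g and Syk the groups were apart with the GSK libraries higher, as in 8.01% of all kept genes. Tyrobp was at 0.33, and Plin2, which coats lipid droplets, at -0.37. The protease gene Ctsl was at -0.90 with overlap, with 0.04 in AY036118-high and -1.76 in Gm42418-high libraries. Itgam, the integrin CD11b, was at 12.59, 11.76 and 11.62 against 10.98, 11.08 and 11.12 (difference -0.93, SE 0.19, adjusted p = 0.053), and 68.3% of its words occur in other genes.

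Cells that clear dying neighbours use receptors such as Axl and Mertk. Axl was at 0.59 (adjusted p = 0.235, limma) and Mertk at -0.07, and the 13 kept genes for clearance had a median of 0.04. In the complement list, C1qa and C1qb, whose proteins form one complex, were at -0.62 and 0.49. C3 was at 0.45, Cfb at 0.63 and the receptor gene C5ar2 at -0.56. Of the 17 kept complement genes 10 were positive, the median was 0.05 and none passed.

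In the ROCK pathway itself, the genes were measured in the bulk fractions and not in the tumour cells at the time of treatment. These fractions also held RNA of epithelial markers, so the values cannot be assigned to macrophages alone. Rock1 and Rock2, named because they encode the targets of the inhibitor and not by the naming rule, were at 0.19 and -0.10 (adjusted p = 0.567 and 0.797, limma). Over the 26 kept genes the median was 0.03, 14 were positive and none passed. Rhoa, the GTPase upstream of the kinases, was at 11.29, 10.94 and 10.76 in DMSO and at 10.13, 10.21 and 10.53 in GSK libraries (difference -0.70, SE 0.16, adjusted p = 0.0592). Rhob was at 10.46, 10.36 and 10.48 against 9.98 and 10.10 in GSK libraries 1 and 3, with GSK library 2 between these (difference -0.40, adjusted p = 0.163). In both, every GSK library lay below every DMSO library. Rac2, a GTPase of blood cells, was at 0.72, the myosin heavy chain gene Myh10 at 0.49, and Msn and Ezr, which link actin to the membrane, at -0.61 and 0.45.

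Myeloid transcription factors had a median of -0.11 over 24 kept genes, 9 of them positive. Cebpb, which drives monocyte and stress genes, was at 11.70, 11.03 and 11.31 in DMSO and at 10.57, 10.57 and 10.40 in GSK libraries (difference -0.83, SE 0.20, adjusted p = 0.0696, limma). Irf8, a factor of monocytes and dendritic cells, was at 11.98, 11.90 and 12.02 against 12.33, 12.25 and 12.44 (difference 0.37, SE 0.12, adjusted p = 0.162). Id2 was at 0.48 and Zeb2 at -0.46. In each of these 4 the groups were apart. Over the list this was so for 3 genes in the higher (12.5%) and 4 in the lower direction (16.7%). Of all kept genes it was so for 8.01% and 8.14%. Mef2c, which was not on the list and is named after its value was seen, was at 10.02, 9.88 and 9.54 against 9.15, 8.98 and 8.35 (difference -0.99, adjusted p = 0.053).

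Sterol genes were mixed. Srebf2, the activator of cholesterol synthesis, was at 8.97, 8.30 and 8.53 in DMSO and at 7.64, 7.90 and 7.83 in GSK libraries (difference -0.81, SE 0.19, adjusted p = 0.0696, limma). Its target Hmgcs1 was at 0.91 and the desaturase gene Scd2 at 0.71. Mylip, which degrades the LDL receptor, was at 8.74, 8.22 and 8.58 against 7.71, 7.51 and 7.44 (difference -0.96, SE 0.21, adjusted p = 0.0573). The transporter gene Abca1 was at -0.29 and Apoe, which carries lipids out of cells, at 0.54. Apoe was at 0.15 without DMSO library 1, at 0.88 without DMSO library 2 and at -0.14 in AY036118-high libraries. The median was 0.04 over 25 genes for synthesis, 14 of them positive, and -0.10 over 10 genes for efflux, 4 of them positive.

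Lists for metabolism and protein turnover had small medians. Hypoxia and glycolysis genes had a median of 0.15 over 27 genes, with Hif1a at 0.33, the lactate exporter gene Slc16a3 at -0.57 and Tpi1 at -0.58. Proteasome genes had a median of -0.06 over 31 genes, with Psmd2 at -0.75. The stress factor gene Atf4 was at -0.70 and the initiation factor gene Eif3c at -0.93, both without overlap (adjusted p = 0.15 and 0.0592, limma). Mitochondrially encoded genes had a median of 0.11 over 15 genes. Their ribosomal RNA gene mt-Rnr2 was at 12.53, 12.48 and 13.12 in DMSO and at 13.98, 13.84 and 13.95 in GSK libraries (difference 1.22, adjusted p = 0.0697), and mt-Rnr1 was at 0.65. No gene of these lists passed.

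**Figure D4:**
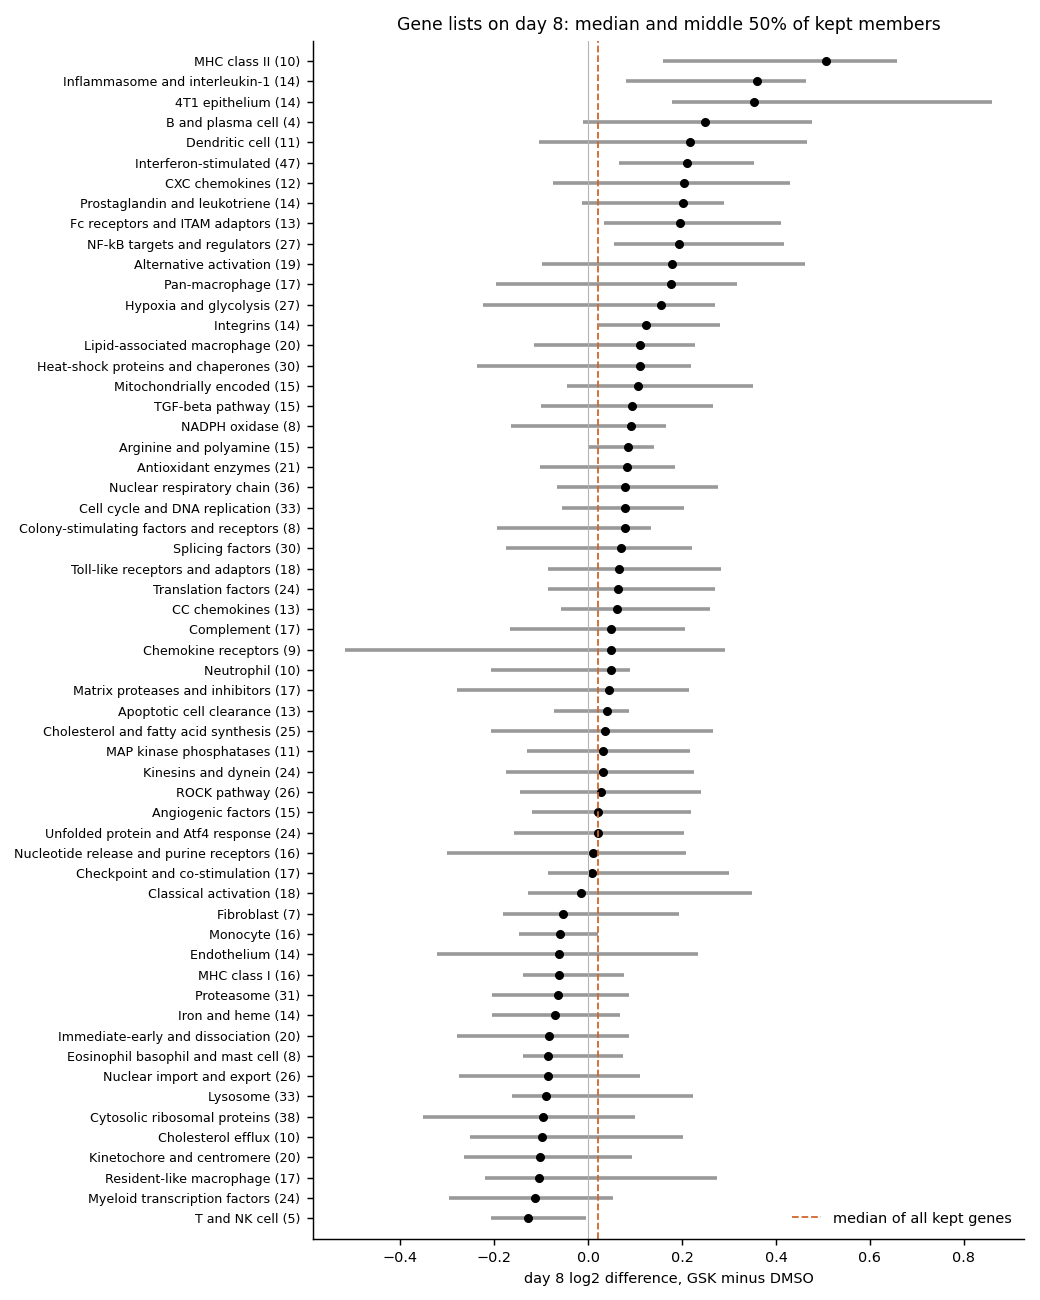
Median day 8 difference (points, log2, GSK minus DMSO) and middle 50% (grey bars) of the kept members of each gene list with at least 3 kept genes, the number kept in brackets. The dashed line is the median of all kept genes at 0.02, and the MHC class II, interleukin-1 and 4T1 epithelium lists have the highest medians, at 0.51, 0.36 and 0.35.

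Some of the larger differences belonged to genes that did not pass. Among protein-coding genes with an unlogged mean of at least 50 and groups apart, Arg2, the mitochondrial arginase, was at 8.21, 6.77 and 9.14 in DMSO and at 9.53, 10.09 and 10.33 in GSK libraries (difference 1.94, SE 0.44, adjusted p = 0.0613, limma). Atp6v0d2, a subunit of the proton pump of lysosomes in macrophages and osteoclasts, was at 5.05, 6.14 and 5.88 against 6.36, 7.15 and 7.24 (difference 1.23, adjusted p = 0.0776). Fbxl2, Sirpb1b, Retnla, Pik3r2, Tiparp, Myo1g, Dmrtb1 and Rpl35 completed the 10 with the most positive differences, from 1.11 for Dmrtb1 to 2.48 for Rpl35. Sirpb1b owed much of its 1.36 to DMSO library 1 at 5.72, as the other DMSO libraries were at 8.39 and 8.31 and the GSK libraries at 8.72 to 8.90, and without that library it was at 0.48. Of its words 72.2% occur in other genes.

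On the lower side, Pdk4, which shuts off pyruvate dehydrogenase, was at 7.36, 6.13 and 6.60 against 4.83, 5.21 and 4.97 (difference -1.70, SE 0.35, adjusted p = 0.053, limma). Dusp5, a phosphatase that inactivates ERK, was at 12.81, 11.92 and 11.85 against 11.24, 10.56 and 10.39 (difference -1.46, adjusted p = 0.0568). Of the 11 kept MAP kinase phosphatase genes, 7 were positive and the median was 0.03, with Dusp6 at -0.76 and Dusp1 at -0.16, so Dusp5 was the only member with an unadjusted p under 0.05. Blmh was at -1.58, Trim12c at -1.49, Eml5 at -1.31, Gys1, glycogen synthase, at -1.28 and Ccdc36 at -1.27. The matrix protease gene Mmp14, from its own list, was at -1.10 (adjusted p = 0.126).

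On day 14, in other libraries, 10.8% of the 11886 genes passed. Of the 23 day 8 genes, 22 had the same sign on day 14 and 18 passed there too. Both comparisons use the same estimate of spread for each gene. Passing on day 14 is therefore not independent of having been chosen on day 8. In 20 of the 23 the difference was larger in size on day 8 than on day 14, which follows in part from choosing them on day 8. Slc17a9 was at -1.84 on day 8 and -1.08 on day 14, Akap5 at -1.66 and -1.20, Lrrc17 at -1.71 and -1.19, Tnpo3 at -1.25 and -0.87, Kif3a at -0.93 and -0.68, and Hsph1 at 1.10 and 0.62. Krt14 was at -0.00 on day 14 (adjusted p of the difference between days 0.453, limma), and Vti1b at -0.27. Across all kept genes, 65.5% had the same sign on both days and Pearson's r between the differences was 0.51. That is a description across genes, which are not independent.

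The difference between the days passed for 1 gene (0.00841%), the pseudogene Rps6-ps4. It was at 4.44, 3.92 and 5.12 in DMSO and at 5.47, 6.44 and 6.07 in GSK libraries on day 8, and its difference was 1.50 on day 8 and 6.59 on day 14. For lists no test was made. The class II median was 0.51 on day 8 and 0.07 on day 14, while that of the inflammasome and interleukin-1 list was 0.36 and 0.37, and of interferon genes 0.21 and 0.17. The epithelium list was at 0.35 on day 8 and -0.26 on day 14, and 1 of its 14 genes had the same sign on both days. Mitochondrially encoded genes were at 0.11 and 0.88.

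**Figure D5:**
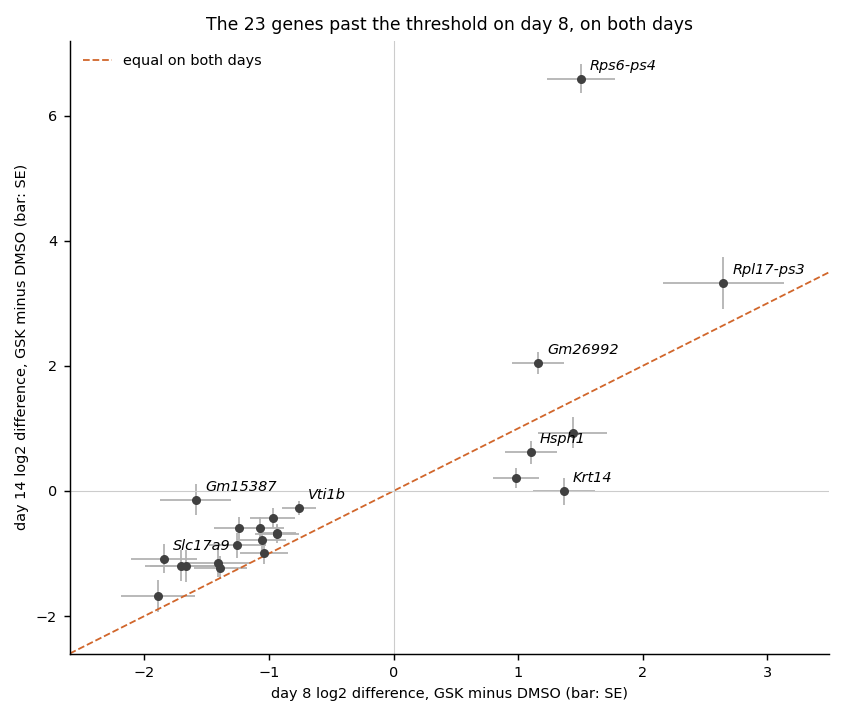
Difference on day 8 (horizontal axis) and on day 14 (vertical axis), both GSK minus DMSO on the log2 scale with SE bars, for the 23 genes that passed on day 8. Most points with negative values lie above the dashed line of equality, so nearer 0 on day 14, Rps6-ps4 stands far above it, and Krt14 is at -0.00 on day 14.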

How the data were processed

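RNA of F4/80-selected tumour fractions was sequenced in 14 libraries, and the 6 of day 8 are described here. The authors deposited 1 table of log2 values for 24556 Ensembl genes. Per the submitters' processing notes, Bowtie2, RSEM 1.2.29 and DESeq2 1.12.4 were used with mm10 and GRCh38 as builds. The transformation that gave the log2 values is not given in the sources used here, and 26.1% of values lie below 0. No counts were used here, so depth is unknown, and the number of libraries limits the precision.

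Symbols and coordinates came from GENCODE M21 by exact identifier (24483 matched, 73 did not). A limma 3.58.1 model (R 4.3.3) with 4 group means and a variance trend was fitted to all 14 libraries, two-sided, and adjusted by Benjamini-Hochberg over the 11886 kept genes. It was also run on simulated data with independent normal values around each gene's mean. That run does not cover outlying libraries, the ribosomal RNA split or correlation between genes. Promoters came from the RefSeq table for GRCm38.p6. Words of 31 bases, on both strands, measured sequence sharing.

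The genes, the 60 lists, the comparisons and the other settings were chosen with earlier results of these data known. By rule, the text named every passing gene except numbered models, members of lists (all where at most 14 were kept, otherwise up to 6 with the smallest p, of which only part is given, and some of which are not reported here), the 10 most positive and 10 most negative protein-coding genes with an unlogged mean of at least 50 and groups apart, and Adgre1, Arg1, Ccl2, Cd274, H2-Ab1, Il1b, Mrc1, Nos2, Spp1, Tgfb1 and Vegfa. Cd68, Irf9, Mef2c, Rock1, Rock2, Neu1, Atp6v0d1 and Ctsa were added. Other settings were 2 pseudocounts, 2 filters, rescaling by unweighted trimmed means of log ratios (TMM) or by quantiles, 2 variance models, the replicate number as a block, day 8 libraries alone, each library left out, the ribosomal RNA split, the epithelium mean as a covariate, and genes with little sequence sharing.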

Additional observations from a re-analysis of the deposited data

Results flagged for a closer look

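The difference between GSK and DMSO libraries was unlike on the days for Rps6-ps4, a pseudogene of a ribosomal protein. The day 8 difference minus the day 14 difference was -5.09 on the log2 scale (adjusted p = 1.86e-06, limma), as it was 1.50 on day 8 and 6.59 on day 14, with higher values in GSK libraries on both days. All of its 31-base words (100%) occur in other genes. When genes that share at least 10% of their words were left out, it was not tested and no gene differed between the days, with 713 at an unadjusted p under 0.05.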

How the results depend on the processing

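The count of genes past the threshold on day 8, 23 with 7 higher and 16 lower, moved with several settings, as did which genes it held. It was 0 with no filter (2907 genes at an unadjusted p under 0.05), 37 with an unlogged minimum of 50, 317 with library quality weights, 2 with the day 8 libraries alone (2 higher, 1 of the 23), 45 when both libraries numbered 1 were dropped (24 higher, 13 of the 23), 8 with a model term for the ribosomal RNA split (7 of the 23), 76 in AY036118-high (54 higher, 12 of the 23) and 3 in Gm42418-high libraries (0 of the 23), 0 with the epithelium mean as a covariate (1869 unadjusted) and 14 of 8790 without genes sharing words, where 10 of 10 of the 23 still tested passed. Leaving out 1 library gave 0 to 208. The day 14 libraries enter through the gene filter and the shared spread, and the filtered genes were kept when 1 was left out. With day 14 libraries 1, 2, 3 or 4 of the DMSO group left out, limma called 71, 41, 54 and 2, and with those of the GSK group 1, 1, 3 and 5. It was 23 and 26 with pseudocounts of 0.1 and 10, 24 and 29 with TMM and quantile rescaling and 25 without the trend. TMM and quantile rescaling moved the median of all genes by -0.01 each. The cause of these changes was not tested.

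The replicate numbers share no stated origin, and deviations of same-numbered libraries correlated at 0.02, -0.01 and -0.09 on day 8. These values show no pairing by number, but with 3 libraries a group they cannot exclude it. With the replicate block 29 genes passed, 14 of them among the 23, and with the block on the day 8 libraries alone 8 passed. The difference between the days, passed by 1 gene, was passed by 4 with the block, 12 in AY036118-high libraries and 0 without genes sharing words (713 unadjusted). Leaving out 1 library gave 1 to 12, with 2 when DMSO day 8 library 1 was the one, 12 for GSK day 14 library 1 and 8 for its library 2. For the day 8 libraries with Gm42418 higher the days could not be compared, since all GSK day 14 libraries had AY036118 higher. Of 188 genes recomputed, 41 changed sign in at least 1 setting, each with neither value past the threshold. In 37 of the 188 the sign was opposite in AY036118-high and Gm42418-high libraries, and 0 of these 37 had passed on day 8 (limma). Depth is unknown, so no limit from counting can be given.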

Other observations

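Genes for prostaglandins and leukotrienes, lipid mediators of inflammation, had mostly positive differences on day 8, and none passed (limma). Of 14 kept genes 10 were positive, 1 gene in each direction had an unadjusted p under 0.05, and the median was 0.20, with 0.23 in AY036118-high and -0.01 in Gm42418-high libraries. Ltc4s, leukotriene C4 synthase, was at 7.70, 7.80 and 7.57 in DMSO and at 7.97, 8.30 and 7.95 in GSK libraries (difference 0.38, adjusted p = 0.26). Tbxas1, thromboxane synthase, was at 0.35 and the prostaglandin E2 receptor gene Ptger4 at 0.30, both with overlap. Ptges3, a co-chaperone of Hsp90 that also has prostaglandin E synthase activity, was at -0.64 (adjusted p = 0.122), with every GSK library lower. The cyclooxygenase genes Ptgs1 and Ptgs2 were at 0.00 and -0.02.

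Lysosome genes had values on both sides, with a median of -0.09 over 33 kept genes. Groups were apart in 6 with the GSK libraries higher (18.2%, against 8.01% of all kept genes) and in 3 with them lower (9.09%, against 8.14%). The lower 3, named after their values were seen, were Neu1 at -0.44, Atp6v0d1 at -0.25 and Ctsa at -0.25. Among the 6 with the smallest p, the hydrolase genes Ctss, Ctsz, Gusb and Glb1 had all GSK libraries above all DMSO libraries, at 0.58, 0.51, 0.34 and 0.33 (adjusted p from 0.125 to 0.24, limma), and none passed. Iron genes had a median of -0.07 over 14 kept. Hmox1, which breaks down heme, was at 10.90, 11.24 and 10.74 against 10.41, 10.58 and 10.71 (difference -0.39, adjusted p = 0.303). Of 30 splicing factor genes, whose proteins include the cargo of Tnpo3, none passed and 17 were positive. Srsf2 was at -0.42 and Hnrnpk at -0.37, Tra2b at 0.38 and Prpf4b at 0.40, each with groups apart, and Hnrnph1 at 1.04 with overlap.

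Of 179 kept antisense genes, 72 had a positive difference on day 8, the median was -0.10 and 1 passed in the lower direction, and 100 of the 179 share at least 10% of their words with another gene. Of 14 kept endothelial markers 6 were positive, the median was -0.06 and none passed. They ran from -0.51 for the junction protein gene Cldn5 to 0.36 for Plvap, and the median was -0.23 in AY036118-high and 0.36 in Gm42418-high libraries. The growth factor gene Igf1 was at -0.62, and Tgfbi, induced by TGF-beta, at 0.65 (adjusted p = 0.263 and 0.151, limma).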
